A study of Mus musculus with 32 samples.

Results

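The genes Slit3, Desi2, Chd7, Bcas3 and Gse1 are 5 of 21887 protein-coding genes in the gene table. Peaks of trimethylated histone H3 lysine 9 (H3K9me3) covered more of their bodies in Morc1 knockout than in heterozygous male germ cells at all 4 stages mapped, and they rank highest when genes are ordered by the smallest of their 4 differences. They were chosen on that measure, so the gene body differences given below describe the choice and are not tested. The series mapped the mark by ChIP-seq in germ cells isolated from testes of mice with Mvh-Venus, a transgene that all animals carried and that marks germ cells by fluorescence. Animals were Morc1 (+/-), called het, or Morc1 (-/-), called KO, at 4 stages: E13.5 and E16.5 before birth (days of embryonic development), then P0 and P3 (days after birth). The labels name 32 samples in 16 groups of 2: 16 samples with an H3K9me3 antibody and 16 with an antibody against histone H3, which were not analysed here. The data were 8 deposited peak lists, 1 for each pair of H3K9me3 samples with the same genotype and stage.

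No list is split by replicate, so the values below have no replicate error, and neither genotypes nor stages were compared by a test. The control animals were themselves heterozygous for Morc1, and no wild-type group was analysed here. Peak lists hold no expression values, so neither the germ cell identity nor the loss of Morc1 could be checked with marker genes. The lists came from bulk chromatin, in which a mark present in fewer cells and a weaker mark in each cell cannot be told apart. Read depth is unknown. A base inside a peak is said to be called. The lists held 52628 to 93523 peaks and covered 166.1 to 339.5 Mb, and the KO list was 1.14, 0.923, 1.04 and 1.09 times as long as the het list in stage order, which here always means from E13.5 to P3.

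H3K9me3 is the mark of constitutive heterochromatin. It is laid down by methyltransferases such as SETDB1 and the SUV39H enzymes, and in germ cells it covers many retrotransposons. Male germ cells at these stages, the gonocytes, rebuild DNA methylation over the genome, and MORC1 is a nuclear ATPase known for its part in silencing transposons in the male germ line. Within genes, H3K9me3 peaks are often found over intronic repeats, while the CpG-rich starts of active genes usually lack the mark. The 5 genes have unrelated roles. Slit3 encodes a secreted ligand of Robo receptors, Desi2 a desumoylating isopeptidase, Chd7 a chromodomain ATPase that remodels nucleosomes, Bcas3 a WD40-repeat protein linked to the cytoskeleton and to autophagy, and Gse1 a coiled-coil protein found with LSD1 and CoREST co-repressors.

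In each list, few genes had a peak within 1 kb of an annotated start, among these genes as over all genes (6.82% to 8.95%). Annotated starts came from RefSeq (GRCm38.p6), where 4 of the 5 genes had an entry. Chd7 had none, and both ends of its gene body were used. The sequences before the first annotated base of Slit3, Desi2 and Bcas3 are shown because no list had a peak over these bases, although peaks lay within 5 kb of the Desi2 start. They read 5′ to 3′ on the plus strand, and capitals mark the dinucleotide CG, which reads the same on both strands. They lie at chr11:35121206-35121455 for Slit3, chr1:178187167-178187416 for Desi2 and chr11:85352914-85353109 for Bcas3.
Slit3: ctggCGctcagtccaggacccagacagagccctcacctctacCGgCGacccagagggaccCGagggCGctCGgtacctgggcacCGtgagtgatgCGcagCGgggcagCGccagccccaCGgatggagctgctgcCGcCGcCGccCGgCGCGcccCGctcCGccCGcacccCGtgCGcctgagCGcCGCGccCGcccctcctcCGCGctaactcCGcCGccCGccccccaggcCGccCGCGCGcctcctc
Desi2: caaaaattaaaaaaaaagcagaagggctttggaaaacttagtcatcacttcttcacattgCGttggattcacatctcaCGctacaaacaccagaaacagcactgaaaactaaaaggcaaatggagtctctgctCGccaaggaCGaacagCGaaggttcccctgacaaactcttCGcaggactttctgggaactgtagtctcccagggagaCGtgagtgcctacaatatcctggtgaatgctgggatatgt
Bcas3: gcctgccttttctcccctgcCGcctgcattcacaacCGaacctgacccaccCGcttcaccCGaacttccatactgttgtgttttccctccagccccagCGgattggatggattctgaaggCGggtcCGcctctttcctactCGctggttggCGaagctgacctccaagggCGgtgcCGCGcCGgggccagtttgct

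In the 250 bases before the start, Slit3 held 35 CG, more than 96.2% of the 21263 annotated starts. Bcas3 held 17 before the start listed for it, more than 68.6%, counting some bases inside the gene body that are not shown. Desi2 held 7, more than 41.4%. The median over all starts was 10, and 93.4% held at least 1. The 3 starts listed for Gse1, all inside the gene body, held 13, 15 and 32. The CG counts of the 4 genes with an entry thus ranged widely.

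With gene ends counted where no start is listed there, a peak lay within 1 kb in 3 of 40 combinations of gene and list. These were Desi2 in E16.5 het (125 bp inside the window), Gse1 just outside the lower end of its gene body in P0 KO (229 bp), and Gse1 at an internal start in E13.5 KO (385 bp). Over all genes with an annotated start, the share with a peak within 1 kb was, in stage order, 6.82%, 7.31%, 7.31% and 7.16% in het and 8.95%, 6.92%, 8.26% and 8.02% in KO, and 16.9% had one in at least 1 list. Counted the same way, by listed starts only, the 4 genes with an entry had a peak in 2 of 32 combinations, and 2 of the 4, Desi2 and Gse1, had one in at least 1 list. The nearest peak to the Slit3 start was 12.1 to 111.5 kb away over the 8 lists, and the nearest to the Bcas3 gene end at 85353110 was 12.5 to 20.4 kb away. For Desi2, the nearest peak lay within 5 kb of the start in all 8 lists, at distances of 0.876 to 4.71 kb.

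The values behind the choice of genes were as follows. On chromosome 11 (35121456 to 35708507, 587.1 kb), Slit3 held 17.1, 20.04, 24.4 and 38.03 kb inside peaks in het, in stage order, and 20.2, 26.4, 33.8 and 47.2 kb in KO. Desi2, on chromosome 1 (178187417 to 178252598, 65.2 kb), held 24.99, 23.8, 16.8 and 21.4 kb in het and 27.99, 26.6, 21.9 and 26.6 kb in KO. Chd7, on chromosome 4 (8690402 to 8868449, 178.05 kb), held 4.67, 6.98, 10.01 and 14.6 kb in het and 8.18, 9.52, 21.3 and 26.5 kb in KO. For these genes the KO list was the higher at each stage, as the rule requires, and the difference was largest at P0 in Slit3 (9.32 kb) and at P3 in Desi2 (5.13 kb) and Chd7 (11.9 kb). Bcas3, on chromosome 11 (85353110 to 85826058, 472.9 kb), held 9.27, 9.25, 12.5 and 22.4 kb in het and 11.8, 12.6, 17.2 and 26.5 kb in KO. Gse1, on chromosome 8 (120228501 to 120581383, 352.9 kb), held 23.04, 10.1, 16.3 and 26.1 kb in het and 29.3, 17.3, 31.3 and 28.6 kb in KO. Its difference was largest at P0, 15.04 kb, and smallest at P3, 2.45 kb.

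**Figure D1:**
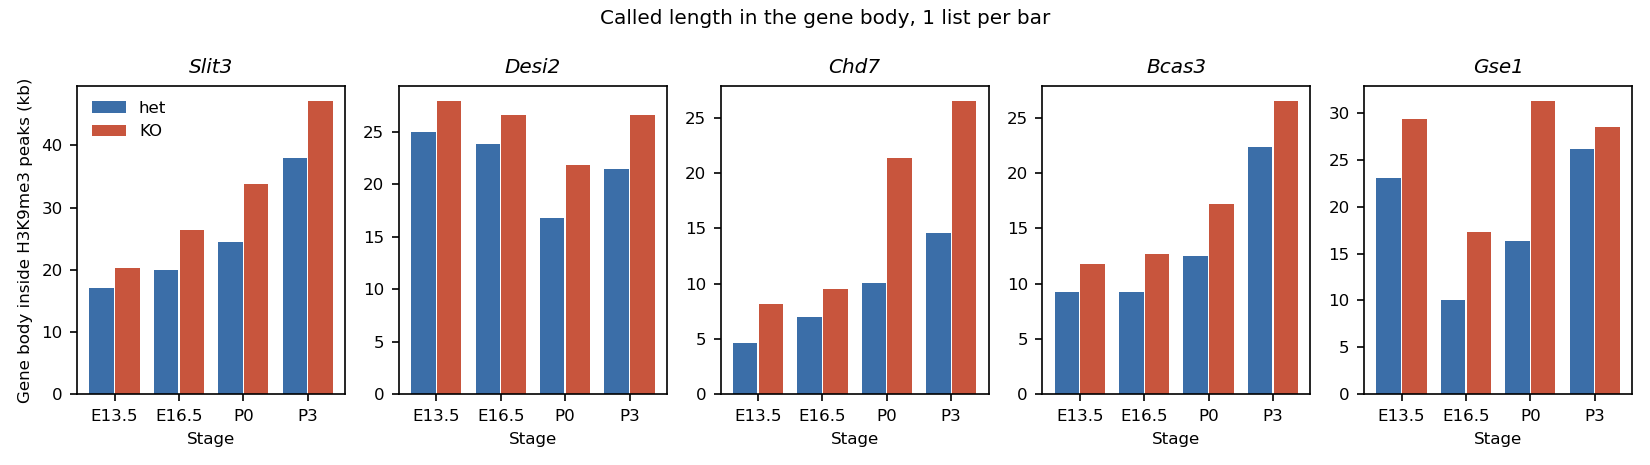
Length of each gene body inside H3K9me3 peaks (vertical axes, kb, each from 0) by stage, for het (blue) and KO (red), with 1 deposited list per bar and no error. The KO bar is the taller in all 20 pairs, which is how the genes were chosen, and the widest gap is that of Gse1 at P0 (16.3 against 31.3 kb).

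Relative to het, the called length in KO ran from 1.09 (Gse1, P3) to 2.13 (Chd7, P0), with a median of 1.31 over the 20 comparisons of gene and stage. In 19 of 20 the ratio lay above that of the whole lists, the exception being Desi2 at E13.5 with 1.12 against 1.14. Such a count is favoured by the rule and is a description only. Gse1 at P3 lay level with the lists, 1.09 in both. At E16.5 the whole KO list covered less than the het list, so the rule by itself placed all 5 genes above the lists. Their ratios there were 1.12 to 1.72. Among covered protein-coding genes the ratio exceeded that of the lists in 42.8%, 53.6%, 65.1% and 52.2% in stage order, counted where the het list had a peak in the gene.

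More in KO at every stage was not rare among genes. Of 11859 genes with a peak in at least 1 list, 642 (5.41%) had more in KO at all 4 stages and 131 (1.10%) had more in het. Stage by stage, KO was the higher in 43.3%, 19.5%, 56.0% and 53.5% of these genes. The rule ranks by base pairs, and long genes can hold more of them. Genes with more in KO at all stages had a median length of 78.2 kb, against 34.3 kb for all genes with a peak, and among genes of at least 50 kb the share was 9.04%. Slit3, Bcas3 and Gse1 were longer than 98.7%, 97.9% and 96.4% of the genes with a peak, Chd7 than 90.4% and Desi2 than 69.2%.

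The threshold of the rule separated close values. Bcas3 and Gse1, the last genes inside it, had smallest differences of 2.51 and 2.45 kb. The next genes were Nrg2 with 2.41 kb, Lrrk1 with 2.304 kb and Gm7133 with 2.28 kb. Nrg2 held 3.88 kb in KO against 1.25 kb in het at E16.5. Gm7133 was heavily covered in both genotypes, with 35.7 kb (het) and 53.53 kb (KO) at the first stage and 62.4 kb (het) and 64.7 kb (KO) at the next. Ranked by the smallest KO/het ratio in place of base pairs, among 320 such genes with at least 2 kb in every het list, Chd7 came 5th, Bcas3 19th, Slit3 23rd, Desi2 58th and Gse1 77th, and Shld1 came first with a smallest ratio of 1.49.

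**Figure D2:**
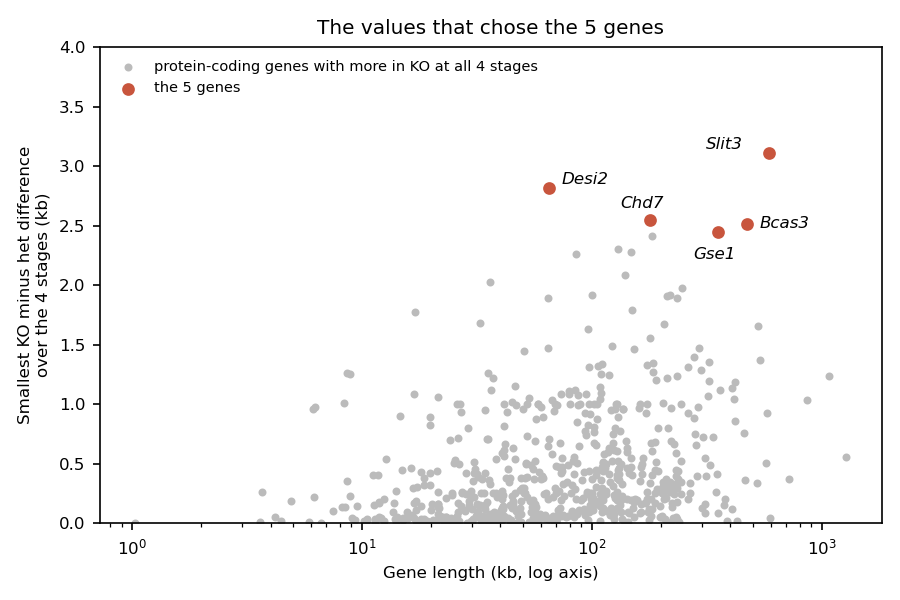
Smallest KO minus het difference in gene body called length over the 4 stages (vertical axis, kb) against gene length (horizontal axis, kb, log scale) for the 642 genes with more in KO at every stage (grey), the 5 genes in red. The red points are the top of the ranking, from 3.11 kb (Slit3) down to 2.45 kb (Gse1), and grey points follow without a break.

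Through development the 5 genes did not share 1 course. At P3 the whole lists were 1.73 times (het) and 1.66 times (KO) as long as at E13.5, and most of that step lay between E13.5 and E16.5. Slit3 was at 2.22 times (het) and 2.33 times (KO) its E13.5 length, Chd7 at 3.13 and 3.24 times, and Bcas3 at 2.41 and 2.25 times, all above the lists. In het, most of the step in these 3 genes lay after E16.5. Bcas3 stood at 0.997 of its E13.5 length at E16.5, when the het list as a whole stood at 1.84. Desi2 had the opposite order. Its called length at P0 was 0.672 (het) and 0.782 (KO) of that at E13.5. At E16.5 Gse1 stood at 0.437 (het) and 0.589 (KO). At P3 it stood at 1.13 and 0.974.

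The peaks inside each gene were then located. Peaks of the 8 lists were merged wherever they touched, which gave 81 sites in the 5 genes. Of these, 13 were called in all 8 lists, 21 in KO lists only and 4 in het lists only, an order that the rule favours. Over all covered genes, 17.0% of 44201 sites were called in all 8 lists, 19.9% in KO lists only and 10.5% in het lists only. Most of the KO-only sites, 18 of 21, came from a single list, as did all 4 het-only sites. The 3 other KO-only sites were in Slit3, Chd7 and Gse1. At 6 sites KO was the longer at all 4 stages: 2 each in Desi2, Bcas3 and Gse1. At no site was het the longer at all 4 stages. The rule favours this order as well. The share over all covered genes was not computed for these counts or for sites from a single list. The called part of each gene was small except in Desi2, where the sites together spanned 49.2% of the gene, against 21.8% of Chd7, 15.8% of Gse1, 12.2% of Slit3 and 7.54% of Bcas3.

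**Figure D3:**
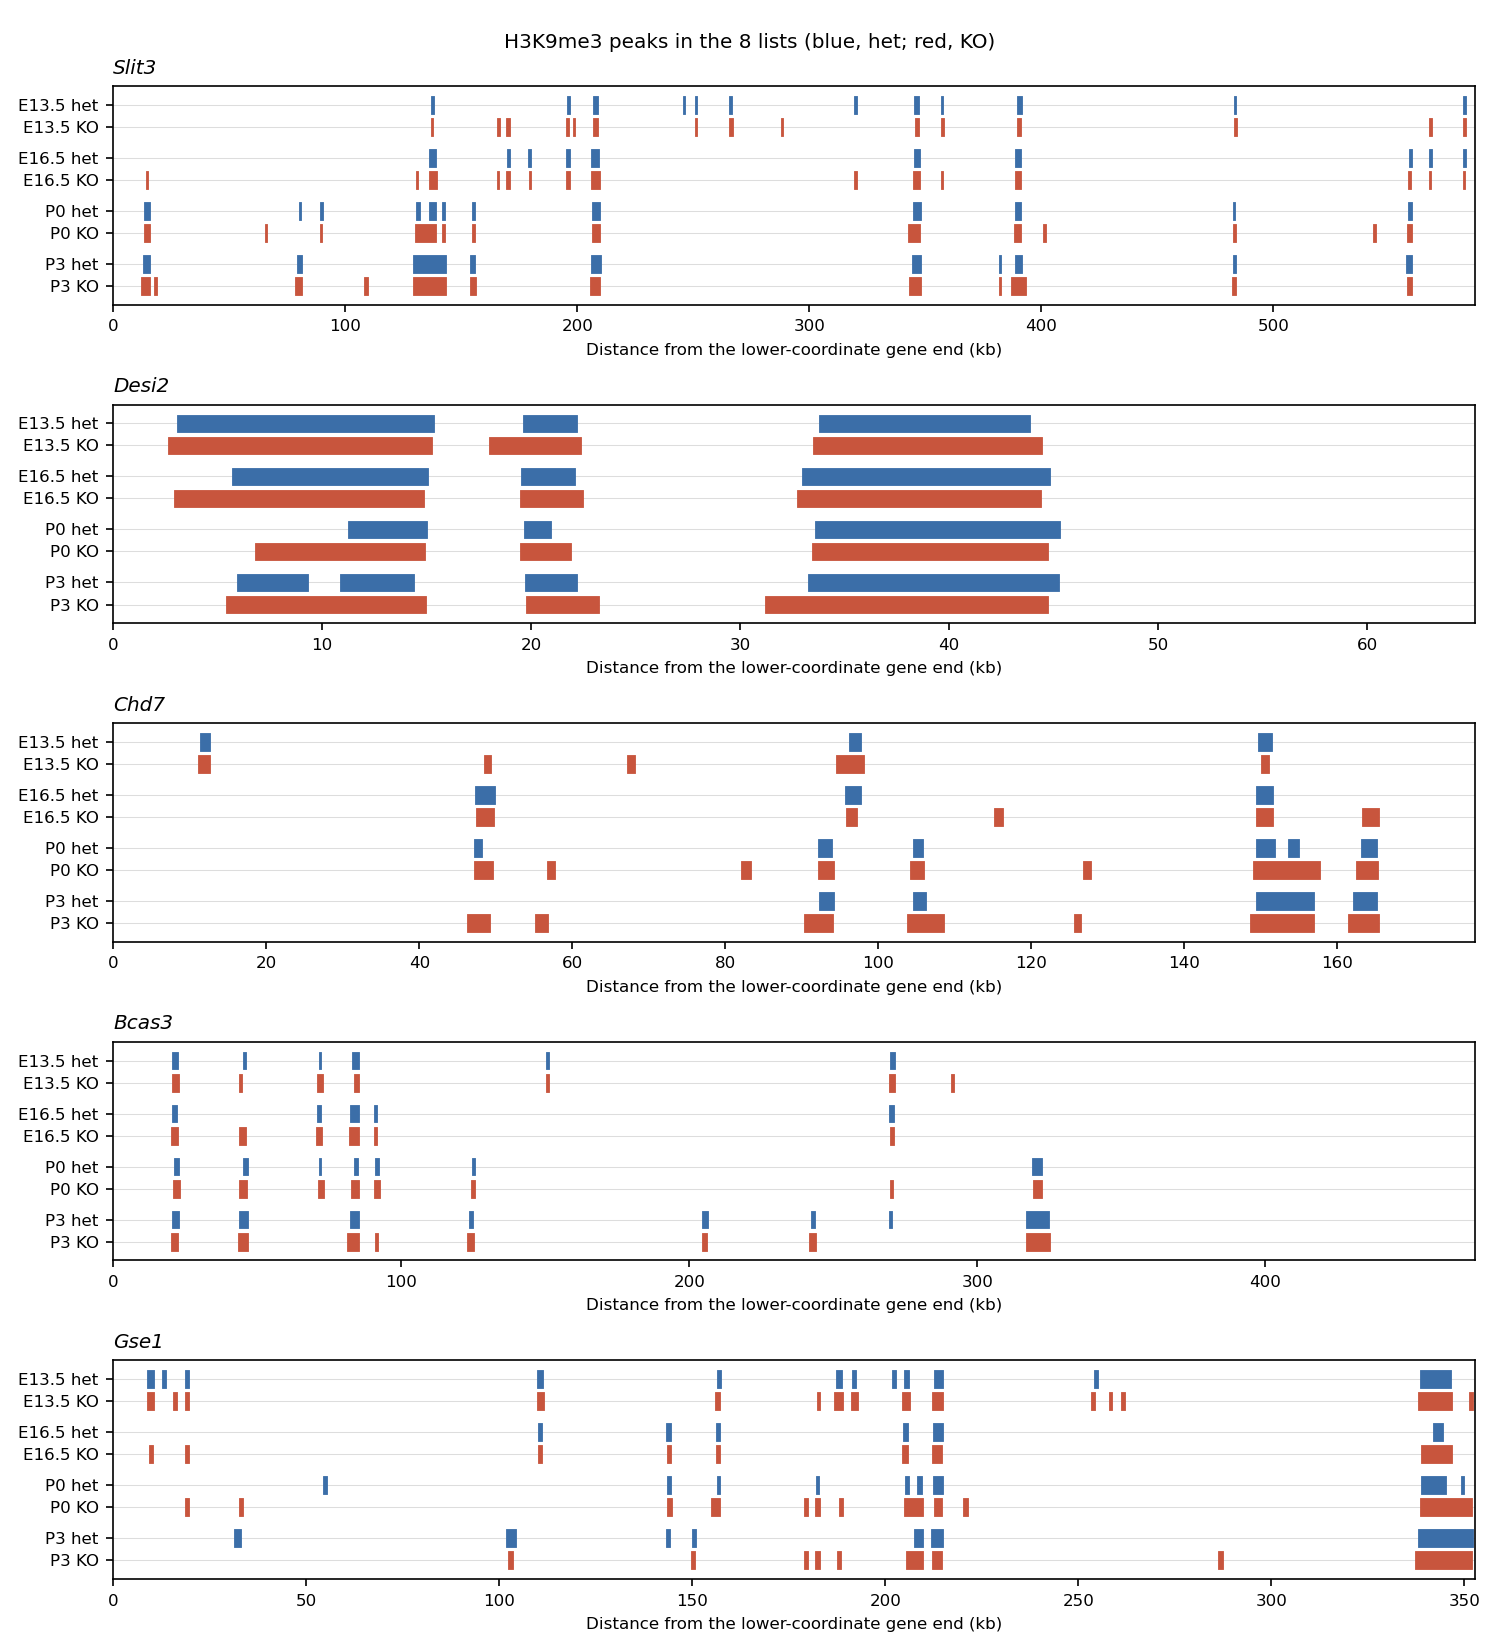
Positions of H3K9me3 peaks along each gene body (horizontal axes, kb from the lower-coordinate gene end) in the 8 lists (rows: het blue, KO red). Desi2 has 3 broad sites in every list, the other genes have many narrow ones, and Bcas3 has no peak in its last 147.7 kb.

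Desi2 had the simplest layout, 3 sites present in all 8 lists. The site nearest the start (chromosome 1, 178190026 to 178202760) held 12.3, 9.36, 3.79 and 6.92 kb in het over the 4 stages and 12.6, 11.95, 8.12 and 9.56 kb in KO. This site therefore was called over nearly its whole span in both genotypes at E13.5, and over a shorter part later, with the shorter part in het. At P0 a stretch of 4.44 kb inside it (178194219 to 178198654) was called in KO and not in het. The middle site (178205407 to 178210647) held 2.59, 2.58, 1.27 and 2.52 kb in het and 4.40, 3.01, 2.47 and 3.48 kb in KO. The third site (178218623 to 178232738) was called at similar length in both, 10.1 to 12.01 kb in het and 10.95 to 13.53 kb in KO, and het was the longer there at E16.5 and P0. Every Desi2 peak had a counterpart in the other genotype. Its differences were thus in how far shared peaks reached.

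Chd7 had 13 sites, and 1 of them was called in all 8 lists. At that site (chromosome 4, 8839002 to 8848066) het held 1.85, 2.26, 3.80 and 7.62 kb and KO held 1.00, 2.18, 8.70 and 8.28 kb. At this site het was the longer in the embryo and KO after birth. A second site (8736628 to 8740252) was called in KO at every stage, with 1.00, 2.38, 2.45 and 3.09 kb, and in het at E16.5 (2.61 kb) and P0 (1.00 kb) only. At P0 no base of the Chd7 body was called in het alone, while 11.3 kb were called in KO alone in 14 stretches. At P3 the figures were 0.228 kb and 12.2 kb. The largest of the P3 stretches was the whole KO peak at 8736628 to 8739713.

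Slit3 had 29 sites over its long body, of which 4 were called in all 8 lists and 8 in KO lists only. Its longest site (chromosome 11, 35250476 to 35264773) held 1.28, 2.80, 6.02 and 14.3 kb in het and 1.00, 4.51, 10.6 and 14.1 kb in KO. KO was the longer at E16.5 and P0, and at P3 both genotypes were called over nearly the whole span. At P3 the largest gap was elsewhere, at 35508532 to 35514851, with 2.93 kb in het and 6.32 kb in KO. No Slit3 site had the longer call in KO at all 4 stages. The gene also hosts the microRNA gene Mir218-2 (35616816 to 35616925), whose 5p product is shown as a separate product of the locus, with its seed in capitals.
mmu-miR-218-5p: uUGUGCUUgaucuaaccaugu

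The hairpin of Mir218-2 lay in a stretch without calls. The nearest peak was 11.3 to 11.8 kb away in the E13.5, P0 and P3 lists and 62.8 kb (het) and 62.6 kb (KO) away at E16.5. The microRNA hairpins inside Bcas3 (Mir5110) and Gse1 (Mir7687) were also outside peaks in all 8 lists, at least 70.9 kb and 22.8 kb from the nearest one.

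Bcas3 had 12 sites, all in the first 325.3 kb of the gene. The site at 85396405 to 85399887 was the longer in KO at each stage, with 1.00, 0, 1.61 and 3.06 kb in het and 1.30, 2.49, 2.76 and 3.48 kb in KO. At E13.5 the het and the KO peak of this site did not overlap. At E16.5 the KO peak, 2.49 kb long, had no het counterpart, and it made up 65.7% of the bases called in KO alone in Bcas3 at that stage. The site at 85373077 to 85376231 was called in all lists and was 0.311 to 0.395 kb longer in KO. The widest site (85669927 to 85678396) was absent from all embryonic lists and held 3.20 kb in KO against 3.46 kb in het at P0, and 8.46 kb (KO) against 8.03 kb (het) at P3.

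Gse1 had 24 sites and the largest single contribution. Its last site (chromosome 8, 120565604 to 120580682), beside the upper end of the gene, held 8.02, 2.69, 7.41 and 14.2 kb in het and 9.73, 8.17, 13.54 and 15.0 kb in KO. Summed over the stages, this site carried 14.1 kb of the 30.97 kb by which KO exceeded het in Gse1, or 45.5%. A site near the middle of the gene (120432933 to 120438317) was also the longer in KO at each stage, with 1.25, 1.26, 2.53 and 2.33 kb in het and 1.89, 1.38, 5.09 and 4.18 kb in KO. At P3 the genotypes had different small peaks. Het alone had peaks of 1.90 kb (120259757 to 120261656) and 1.00 kb (120371724 to 120372724). KO alone had 3 peaks of 1.00 to 1.26 kb between 120407570 and 120417020 and 1 of 1.30 kb (120514620 to 120515920). In all, 5.25 kb of Gse1 were called in het alone at P3 and 7.70 kb in KO alone.

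Counting whole peaks, the 5 genes held 164 KO peaks and 133 het peaks over the 4 stages. Of the KO peaks, 46 (28.05%) shared no base with a het peak of the same stage, and of the het peaks 10 (7.52%) shared none with a KO peak. Over all peaks that touched a protein-coding gene body, the shares were 21.9% in KO and 12.7% in het. The rule favours such a gap, so it is given as a description. Unmatched KO peaks were short: 32 of 46 had a length of 1001 bp, the most common length in every list, and the longest was the 3.09 kb peak of Chd7 at P3. Unmatched peaks made up 37.5% of the 146.5 kb called in KO alone, summed over the stages. The other part came from KO peaks that reached beyond a shared het peak.

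Most bases called in KO alone were so called at a single stage. In Slit3, 33.6 kb were called in KO alone at 1 stage or more, and 3.16 kb of them (9.40%) at more than 1 stage. The share at more than 1 stage was 8.55% in Chd7, 18.3% in Bcas3, 18.4% in Desi2 and 25.7% in Gse1. Over all covered genes it was 15.2%, inside the range of the 5 genes. For bases called in het alone it was 49.96% in Desi2, of 1.28 kb in all, and 0 to 4.44% in the other genes, against 15.8% over all covered genes. Nowhere in the 5 genes was a base called in KO alone at all 4 stages. That was also rare over all covered genes, at 0.0231% of the bases ever called in KO alone. Of the bases called in KO alone at P0, 50.02 kb in the 5 genes together, 15.9% were again called in KO alone at P3, 3.35% in het alone, 49.5% in both genotypes and 31.2% in neither. Over all covered genes, with genes that overlap counted more than once, the shares were 24.6%, 3.14%, 28.3% and 44.0%. Bases that KO had at P0 and het lacked were thus most often called in both genotypes at P3 in these genes.

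**Figure D4:**
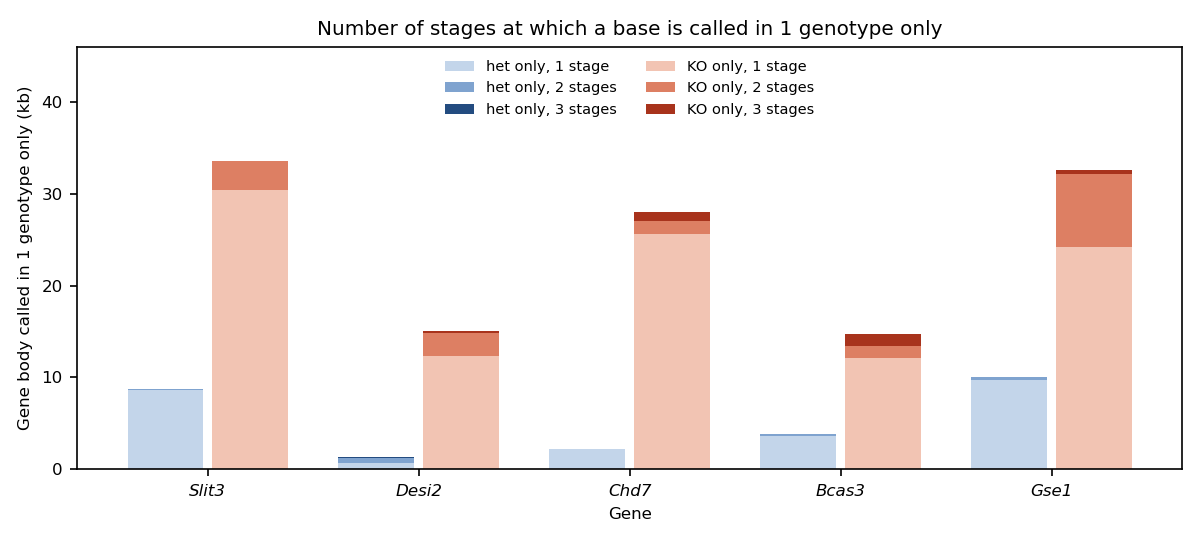
Length of each gene body called in 1 genotype only (vertical axis, kb), het on the left and KO on the right for each gene, with shading by the number of stages at which the same base was so called. The lightest shade (1 stage) makes up most of every KO bar, as in Slit3 with 30.4 of 33.6 kb, and no base reached 4 stages. Over all covered genes, 0.0231% of such bases in KO and 0.031% in het did.

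The flanks, 200 kb on each side of the gene, were not used by the rule. Slit3 flanks held 8.42, 15.3, 17.8 and 22.9 kb in het over the 4 stages and 7.28, 14.6, 23.7 and 30.04 kb in KO. Desi2 flanks held 45.7, 57.7, 62.9 and 56.7 kb in het and 54.7, 58.3, 62.1 and 63.04 kb in KO. Chd7 flanks held 31.5, 50.3, 58.5 and 68.4 kb in het and 37.4, 52.8, 64.1 and 74.8 kb in KO. Of these genes, Chd7 had the higher KO value in the flanks at each stage, Slit3 after birth only, and Desi2 at all but P0. Bcas3 flanks held 14.9, 12.7, 13.4 and 12.1 kb in het and 16.2, 12.1, 17.4 and 18.4 kb in KO. Gse1 flanks held 13.998, 27.2, 19.7 and 22.2 kb in het and 16.06, 25.8, 24.9 and 28.4 kb in KO. Both had the lower KO value at E16.5 and the higher one at the other stages.

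The flanks were read against those of all protein-coding genes. KO was the higher in the flanks of 4 of 5 genes at E13.5 (84.9% of 21133 genes with a peak in the flanks), 2 of 5 at E16.5 (25.7%), 4 of 5 on the day of birth (73.8%) and 5 of 5 at P3 (75.2%). At all 4 stages together it was the higher for 1 of 5, Chd7, against 14.4% of genes. Chd7 lost that pattern with flanks of 100 kb, where KO minus het was -0.251 kb at P3, and of 500 kb, where it was -1.64 kb at E16.5. The flank ratio lay above that of the whole lists in 3, 5, 4 and 4 of 5 genes, against 61.0%, 55.6%, 66.2% and 58.0% of genes. The gene body ratio exceeded the flank ratio in 16 of 20 comparisons, a direction that the rule favours. In Chd7 at P0 they were 2.13 and 1.10, and in Bcas3 at P3 they were in the opposite order, 1.19 and 1.52. The genes chosen for the opposite direction, Lrfn5, Tafa4, Oca2, Gpr158 and Lrrc4c, had the higher KO value in their flanks in 5 of 20 comparisons, against 15 of 20 here, from the same 8 lists and with no test of the difference. Each count pools 5 genes over 4 stages and is to be read beside the all-gene shares above, 25.7% to 84.9% by stage. Both sets were chosen, in opposite directions, on the gene bodies between these flanks.

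**Figure D5:**
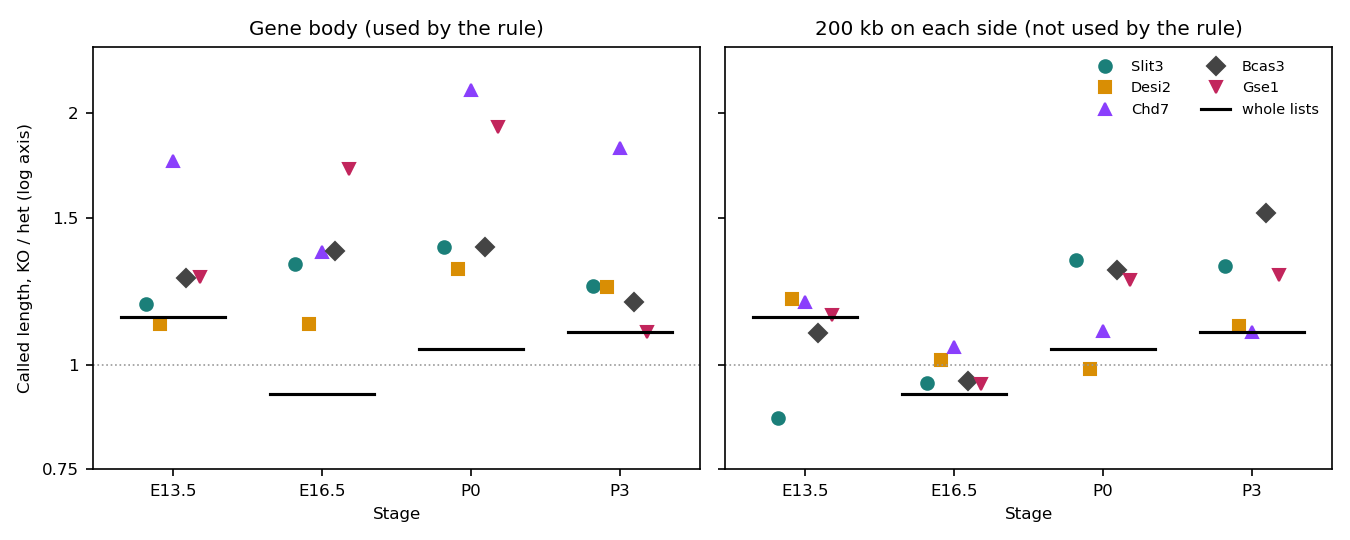
Ratio of called length in KO to that in het (vertical axes, log scale) by stage for the 5 genes, in the gene body (left, used to choose the genes) and in the 200 kb on each side (right, not used). Black lines mark the ratio of the whole lists, 1.14, 0.923, 1.04 and 1.09, and the flank points lie on either side of 1 at E13.5, E16.5 and P0.

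The sides of a gene could differ. After Bcas3, the flank held 10.2 kb in KO against 4.21 kb in het at P3, while the flank before it held 8.19 kb (KO) against 7.90 kb (het). Before Desi2, KO exceeded het by 8.22 kb at the first stage and by 9.42 kb at the last. After Desi2, KO exceeded het by 0.833 kb at the first stage, and het exceeded KO by 3.11 kb at the last. The flank before Desi2 contains most of Catspere2, which was the only 1 of 24 neighbouring protein-coding genes with more in KO at all 4 stages. Over all genes with a peak in some list, 5.41% had more in KO at all 4 stages. Catspere2 held 19.7, 25.9, 32.1 and 23.3 kb in het and 26.2, 27.5, 32.7 and 30.7 kb in KO. Rab2a, a small GTPase gene before Chd7, held 11.6, 10.9, 7.59 and 15.5 kb in het and 15.3, 10.8, 9.93 and 21.7 kb in KO. Wwc1, after Slit3, held 14.3 kb in KO against 11.1 kb in het at P3. Efcab2, after Desi2, held more in KO in the embryo (3.92 kb in KO against 2.95 kb in het at E13.5) and more in het after birth (5.48 kb against 3.59 kb in KO at P3). Tbx2, the T-box gene just beyond Bcas3, had peaks at E13.5 only, with 3.77 kb in het and 3.39 kb in KO. Of the 24 neighbours, 9 had no peak in any list and 14 held at least 1 kb in some list. Of all protein-coding genes, 54.2% had a peak in at least 1 list.

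Genes of the same families and complexes were examined by lists chosen for the members' roles. Of the 7 Slit and Robo genes, all had a peak in some list (54.2% of all protein-coding genes had one). Slit3, chosen for it, was the only 1 with more in KO at all 4 stages (background 5.41%). The receptor gene Robo2 had less in KO in the embryo, with 44.4 kb in KO against 51.5 kb in het at E16.5. It had more in KO after birth, with 93.1 kb in KO against 70.8 kb in het at P0. The ligand gene Slit1 had 3.30, 9.40, 12.5 and 10.6 kb in het and 3.003, 13.1, 14.6 and 13.45 kb in KO. Of the 9 Chd genes, 7 had a peak, and Chd7, likewise chosen for it, was the only 1 with more in KO at each stage. Chd6 held 3.92, 1.34, 7.06 and 14.7 kb in het and 3.55, 1.25, 7.82 and 16.04 kb in KO, with het the longer in the embryo. Chd2 held 2.03, 2.93, 1.00 and 1.86 kb in het and 2.55 and 2.99 kb in KO in the embryo, with none in KO after birth. Without the chosen gene, the median summed difference over the stages was 1.62 kb for the 6 covered Slit and Robo genes and 0.304 kb for the 6 covered Chd genes, against 1.00 kb over all covered genes.

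Among 10 desumoylating enzyme genes, 5 had a peak, and Desi2, chosen for it, was the only 1 with more in KO at all 4 stages. For the counts in this paragraph, the share of all protein-coding genes with a peak was 54.2%. Of those, 5.41% had more in KO at all 4 stages. Senp2 held 9.74, 8.30, 7.57 and 7.24 kb in het and 9.23, 8.89, 9.89 and 14.9 kb in KO. Senp7 held 4.45, 7.21, 5.01 and 8.32 kb in het and 7.15, 5.64, 11.9 and 9.41 kb in KO. Each had the longer call in het at 1 stage, Senp2 at E13.5 and Senp7 at E16.5. Of 12 genes of the CoREST and LSD1 complexes, 9 had a peak. Besides Gse1 itself, 1 of the other 11, Phf21a, had more in KO at each stage. Phf21a, a subunit that reads unmethylated lysine 4 of H3, held 1.39, 1.29, 3.06 and 9.52 kb in het and 1.59, 1.54, 10.6 and 17.7 kb in KO. Zmym2 held 3.93, 1.79, 1.00 and 2.17 kb in het and 6.05, 1.58, 1.00 and 5.16 kb in KO. Without Desi2, the median summed difference was 4.33 kb over the 4 other covered desumoylating genes and 0 over all 9. These 4 were split, with 10.1 kb in Senp2 and 9.07 kb in Senp7 but -1.155 kb in Senp6 and -0.413 kb in Uspl1. Without Gse1, the median summed difference was 1.00 kb over the 8 covered genes of the complexes and 0.925 kb over all 11. Over all covered protein-coding genes it was 1.00 kb.

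Of 18 genes for H3K9 methylation and its readers, 10 had a peak, 2 had more in KO at all 4 stages and 1 had less. Of all protein-coding genes, 54.2% had a peak. Among those with a peak, 5.41% had more in KO at all 4 stages and 1.10% had less. The 2 listed genes with more in KO were Atf7ip, a partner of SETDB1, and Morc3, the latter named after its values were seen. Atf7ip held 14.9 kb in KO against 8.77 kb in het at the first stage, and 1.42 kb (KO) against 1.30 kb (het) at the next. Morc3 held 7.46 kb in KO against 6.38 kb in het at the first stage, and 9.96 kb (KO) against 9.57 kb (het) at the last. The listed gene with less was Morc1, the targeted gene, with 3.47 kb in het and none in KO at P0. Ehmt1 held 2.57, 3.67, 4.70 and 9.24 kb in het and 1.52, 3.16, 6.36 and 14.1 kb in KO, with het the longer in the embryo. The median summed difference was 0.214 kb over the covered genes of this list, against 1.00 kb over all covered protein-coding genes. It was 0 over all 18.

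The genes whose 8-list profile was most like the mean profile of the 5 were found by Pearson correlation over the 8 lists, among 2594 genes with at least 2 kb in every list. The lists share depth and calling across genes, so r is a description. The 3 highest outside the 5 were Igf2bp2 (r = 0.974), an mRNA-binding protein gene, Pced1b (0.968) and Mmrn2 (0.960). Igf2bp2 held 7.26, 5.56, 7.38 and 13.3 kb in het and 9.17, 6.22, 14.9 and 21.2 kb in KO. The members themselves, each of them part of that mean, ranged from 0.938 (Bcas3) and 0.935 (Chd7) to 0.762 (Gse1) and 0.206 (Desi2). Desi2, with its highest values in the embryo, was the least like the others.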

How the data were processed

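ChIP-seq peak lists were deposited by the authors as 3 columns without a header, the chromosome, start and end of each peak, a unit of base pairs with no score. Per the submitters' processing notes, bcl2fastq 2.20, cutadapt 1.18, Bowtie2 2.3.4.1, deepTools 3.5.0, HOMER 4.10 and the build mm10 were used. The notes give no roles. How peaks were called, at which threshold, whether H3 libraries served as control and how replicates were pooled are not given in the sources used here. Each list was assigned to its group by the stage and genotype in its name.

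Autosomal, X and Y peaks entered the counts, and the few mitochondrial ones (up to 2 in a list) did not. Gene bodies run from RefSeq start to end (GRCm38.p6, the same build), printed 1-based. Covered base pairs were counted per gene and per 200 kb flank with Python 3.11.15, numpy 2.4.6 and pandas 2.3.3, and the counting was checked on simulated lists. A peak was matched when it shared 1 bp with the other genotype. Depth per sample is unknown, so no interval was computed. No test was made, since each group had 1 list. The 5 genes and the gene lists were chosen with earlier results of these data known. Also named were the genes ranked 6 to 8 by the same rule, up to 3 genes per list by summed difference, the 3 most alike profiles, and neighbours with at least 1 kb. The alternatives varied peak length, list size, merging, gene limits, flank width, overlap and start window. One, leaving out the longest KO-only stretch, was added after seeing the data. Repeats, exons and peak sequences were not analysed here.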

Additional observations from a re-analysis of the deposited data

How the results depend on the processing

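Merging peaks less than 1 kb apart left every gene body and flank difference and count unchanged, so it was no check on them. In all 20 gene body comparisons, KO stayed above het with equal peak numbers within a stage and without peaks of the most common length. So it did with 5 kb added on each side and without the longest KO-only stretch of each gene and stage. Without that stretch, though, some differences were far smaller: 0.024 kb in place of 2.81 kb for Desi2 at E16.5, 0.226 in place of 2.55 kb for Chd7 at E16.5, 0.436 in place of 2.45 kb for Gse1 at P3, 0.66 in place of 5.10 kb for Desi2 at P0, 0.907 in place of 3.39 kb for Bcas3 at E16.5, 1.21 in place of 2.51 kb for Bcas3 at E13.5 and 1.36 in place of 2.996 kb for Desi2 at E13.5. Without peaks of the most common length, the difference fell from 3.52 to 0.516 kb for Chd7 at E13.5 and from 6.38 to 1.37 kb for Slit3 at E16.5. It fell from 3.11 to 1.11 kb for Slit3 at E13.5, also with equal peak numbers, and from 7.20 to 3.19 kb for Gse1 at E16.5. It rose from 2.51 to 3.51 kb for Bcas3 at E13.5 and from 15.04 to 16.04 kb for Gse1 at P0. With the longer 50% of each list KO stayed above het in 17, and 3 reversed: Slit3 at E13.5 (-2.53 kb, KO minus het), Chd7 at E16.5 (-0.227 kb) and Gse1 at P3 (-0.704 kb). The number of genes with more in KO at all 4 stages was then 340 in place of 642, and 555 to 895 under the other 4 alternatives. The count of 19 of 20 gene body ratios above that of the lists became 15 with the longer 50%. It became 16 without peaks of the most common length and 18 with equal peak numbers, and stayed at 19 under merging and with 5 kb added. The flank count of 15 of 20 ranged from 14 to 16. Some single flank comparisons turned. For Slit3 at E16.5 the difference became 2.19 kb with the longer 50% and 0.265 kb without peaks of the most common length. For Desi2 at E16.5 it became -1.98 and -0.314 kb under the same alternatives, -1.16 kb with 100 kb flanks and -0.276 kb without other gene bodies. Desi2 at P0 turned to 1.79 kb with 100 kb and 4.80 kb with 500 kb flanks. Chd7 turned from 2.49 to -1.64 kb at E16.5 with 500 kb and from 6.36 to -0.251 kb at P3 with 100 kb, and Bcas3 at E16.5 to 0.433 kb without peaks of the most common length. Peaks near gene starts numbered 6 combinations in place of 3 with 2.5 kb windows, and 58 KO peaks in place of 46 counted as unmatched when under 50% of the peak lay in het peaks. The cause of these shifts was not tested. No paired analysis was possible because the lists carry no replicate number, and leaving out a replicate was not possible for the same reason. Read depth is unknown, so its part in the differences in called length was not tested.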
